A study of Mus musculus with 6 samples.

Results

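Sirtuins are the 7 enzymes encoded by *Sirt1* to *Sirt7*. The genes were taken by their symbols from the 55421 genes of an RNA-seq table of activated mouse B cells with and without hnRNPL, an RNA-binding protein that acts in pre-mRNA splicing. All 7 had a row and all 7 passed the filter for testing, an average over the 6 libraries of 10 normalized counts or more, which 17640 genes passed. A normalized count is the number of reads on a gene divided by a scaling factor for the depth of the library.

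The libraries came from splenic B cells activated ex vivo for 24 h with LPS (5 µg/ml) and IL-4 (5 ng/ml), a pair of stimuli that drives proliferation and class switching. WT cells were GFP+ cells of 3 Rosa mT/mG CD21-cre mice, and hnRNPL-deficient cells were GFP+ cells of 3 Rosa mT/mG CD21-cre mice that also carried hnRNPL F/F, all on the C57BL6/J background. The study used both sexes at ages over 6 weeks. CD21-cre deletes in mature B cells, the reporter turns GFP on where Cre has acted, and the controls therefore carry the same Cre and reporter and underwent the same sort. The labels number the libraries 1 to 3 in each genotype, and p-values measure the spread between these libraries.

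Sirtuins remove acetyl and longer acyl groups from lysines of proteins and spend 1 molecule of NAD+ for each group removed, which ties their activity to the metabolic state of the cell. SIRT1, SIRT6 and SIRT7 are found mainly in the nucleus, SIRT2 mainly in the cytosol, and SIRT3, SIRT4 and SIRT5 in mitochondria. In lymphocytes SIRT1 is best known for deacetylating p53, FOXO factors and the NF-κB subunit RelA.

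The genotype labels were checked on the targeted gene. *Hnrnpl* had 24371, 25580 and 24174 normalized counts in WT and 2178, 1519 and 1297 in hnRNPL-deficient cells, so that 6.74% of the WT mean was left (limma adjusted p = 2.23e-05). Reads on genes ranged from 40395186 in hnRNPL-deficient 3 to 75180749 in WT 3. *Xist*, the RNA of the inactive X chromosome, had 98507 normalized counts in WT 3, 98219 in hnRNPL-deficient 2 and at most 7.21 in the other libraries, so that each genotype held 1 library with the female pattern. Of the marker lists, all 6 B cell genes and all 5 plasma cell genes were measured above the filter, but 6 of 8 T cell genes, 6 of 8 myeloid genes and 4 of 5 NK and erythroid genes were below it.

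Expression of the sirtuin family differed between the genotypes mainly in *Sirt1*, the nuclear and cytosolic deacetylase of p53 and FOXO proteins, which fell to 43.6% of WT. It was the only sirtuin called, at the study's thresholds of an adjusted p under 0.1 and a change of at least 1.5-fold; 1 of 7 genes was called lower and 0 were called higher. Among all 17640 tested genes 4.08% were called lower and 7.28% higher by the same limma test, 11.4% in all. At an unadjusted p under 0.05, 3 sirtuins passed (*Sirt1*, *Sirt3* and *Sirt4*), and at an adjusted p under 0.1, whatever the fold, 2 did (*Sirt1* and *Sirt4*), a criterion that 18.0% of all tested genes met.

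**Figure D1:**
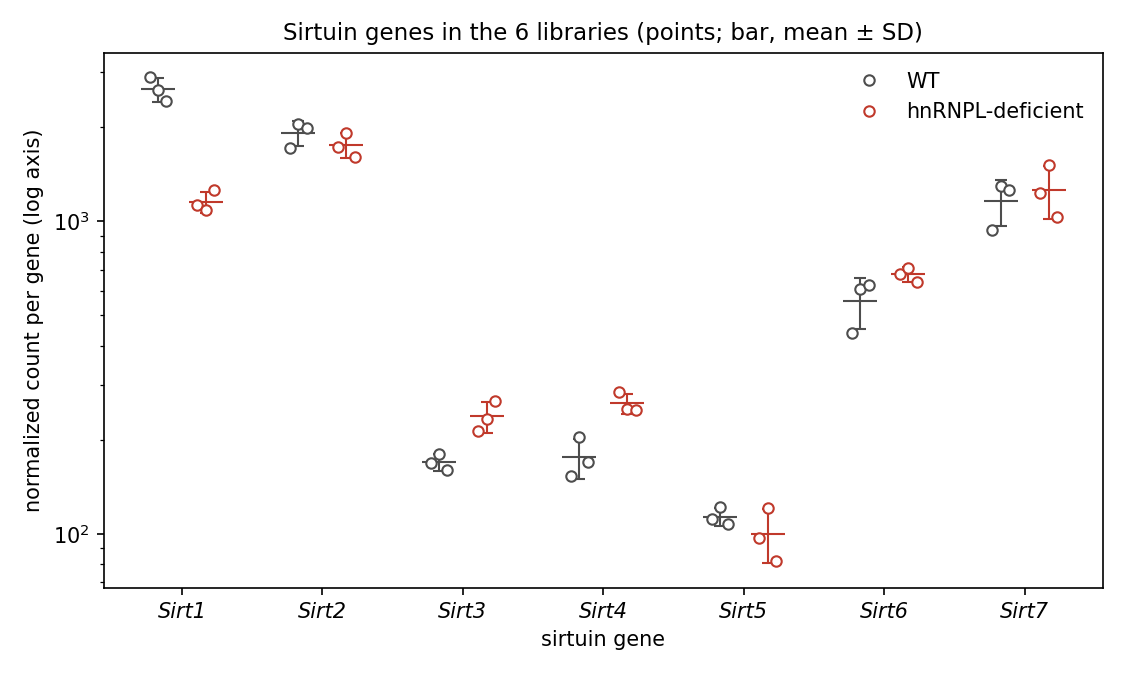
Normalized counts of the 7 sirtuin genes on a log axis. Points are the 6 libraries, grey for WT and red for hnRNPL-deficient cells, and bars give the mean ± SD of 3 libraries. The WT points of *Sirt1* lie between 2423 and 2886 and the hnRNPL-deficient points between 1085 and 1256, while *Sirt2*, *Sirt5* and *Sirt7* overlap between the genotypes.

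*Sirt1* lies at chr10:63319005-63381704 on the minus strand of GRCm38. It had 2886, 2629 and 2423 normalized counts in WT 1 to 3 and 1123, 1085 and 1256 in hnRNPL-deficient 1 to 3. Every hnRNPL-deficient library was below every WT library, and the nearest libraries were WT 3 and hnRNPL-deficient 3. The means were 2646 ± 232 and 1155 ± 89.3 (SD, n = 3 each). The log2 fold change, hnRNPL-deficient minus WT on log2(normalized count + 1), was -1.19 (SE 0.114, 95% interval -1.46 to -0.93), with an adjusted p of 8.08e-04 from limma. As a ratio this interval runs from 0.365 to 0.523. Of all tested genes, 250 (1.42%) had a lower log2 fold change than *Sirt1*. Because these are bulk libraries, fewer cells that express a gene and less RNA of it per cell cannot be told apart.

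The study reported more inclusion of an alternative *Sirt1* exon without hnRNPL, and less of the canonical transcript in resting hnRNPL-deficient B cells. In a B cell line it found a shorter half-life of the transcript with the exon. The bases around this exon are therefore given first, as annotated. They are printed because the exon changes the reading frame and holds the kind of CA-rich run that hnRNPL is known to bind. GENCODE lists 7 *Sirt1* transcripts, of which 4 are protein-coding, 2 retain an intron and 1, Sirt1-205, is classed as a target of nonsense-mediated decay, the pathway that degrades mRNA with an early stop codon. Sirt1-205 holds an exon of 125 bases at chr10:63326660-63326784 (minus strand), between exon 4 (chr10:63331745-63331897) and exon 5 (chr10:63326039-63326186) of the coding transcript Sirt1-201. The 3 sequences below run 5′ to 3′ and are read from the GENCODE transcripts. In Sirt1-201 the capitals mark the start of exon 5 after the end of exon 4, in Sirt1-205 they mark the stop codon reached after the same exon 4 bases and 4 further codons, and in the CA run they mark its 14 bases within a window of the alternative exon at chr10:63326728-63326757.
Sirt1-201: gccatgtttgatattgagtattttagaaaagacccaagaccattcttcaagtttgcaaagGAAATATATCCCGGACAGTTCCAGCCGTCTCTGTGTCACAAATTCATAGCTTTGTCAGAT
Sirt1-205: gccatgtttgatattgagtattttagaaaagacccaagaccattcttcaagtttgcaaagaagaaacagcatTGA
CA run: ggggaaaaACACACACACAAAAtccagcaa

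The 125 bases leave a remainder of 2 when divided by 3, so the exon also shifts the frame of what follows. In the sequence of the transcript itself, the only strand searched, it holds 3 overlapping matches to ACACACA and 1 to ACACAAA, which itself overlaps the last ACACACA. Among the 1268 annotated internal exons of the same length, 1.58% hold either motif, 0.789% hold ACACACA and 0.946% hold ACACAAA. A match is a description of these letters and not a measured binding site. Other sirtuins also have annotated exons with either motif, namely 4 of 26 distinct exons in *Sirt5* and 2 of 22 in *Sirt3*, against 1 of 23 in *Sirt1* and 0 in *Sirt2*, *Sirt4*, *Sirt6* and *Sirt7*; these exons differ in length. *Sirt3* and *Sirt5* each have 1 annotated transcript classed as a target of nonsense-mediated decay as well. The deposited values are sums over the whole gene, so reads of Sirt1-201 and Sirt1-205 were counted together in the *Sirt1* values above, and the share of transcripts with the exon was not measured here.

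The other nuclear sirtuins did not pass the test. *Sirt6*, a histone deacetylase of telomeres and of glycolytic genes (chr10:81621785-81627797, minus strand), had 439, 606 and 625 normalized counts in WT and 680, 711 and 637 in hnRNPL-deficient cells. The ranges did not overlap, but the highest WT library and the lowest hnRNPL-deficient library lay close together and WT 1 was well below WT 2 and WT 3. Its log2 fold change was 0.30 (95% interval -0.08 to 0.67), with an adjusted p of 0.286 from limma.

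*Sirt7*, a nucleolar deacetylase linked to ribosomal RNA transcription (chr11:120618372-120625240, minus strand), had 935, 1293 and 1256 normalized counts in WT and 1232, 1519 and 1033 in hnRNPL-deficient cells. The genotypes overlapped, with the highest and the second lowest of the 6 values both among the hnRNPL-deficient libraries. The log2 fold change of 0.12 (95% interval -0.29 to 0.53) had an adjusted p of 0.713 from limma, and it was -0.03 when either WT 1 or hnRNPL-deficient 2 was left out. A ratio between 0.815 and 1.44 remained within this interval.

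*Sirt2*, a mainly cytosolic tubulin and histone deacetylase (chr7:28766735-28788661, plus strand), had 1715, 2047 and 1982 normalized counts in WT and 1734, 1922 and 1609 in hnRNPL-deficient cells. The genotypes overlapped, and the mean of hnRNPL-deficient cells was 91.7% of that of WT. The log2 fold change was -0.13 (95% interval -0.39 to 0.14), with an adjusted p of 0.531 from limma, and the interval does not reach a 1.5-fold change (0.585 on the log2 scale) in either direction.

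The mitochondrial sirtuins *Sirt3* and *Sirt4* were higher than WT in all 3 hnRNPL-deficient libraries, but neither was called, and *Sirt5* overlapped. *Sirt4*, which encodes a mitochondrial ADP-ribosyltransferase and lipoamidase (chr5:115478010-115484725, minus strand), had 153, 204 and 171 normalized counts in WT and 284, 251 and 249 in hnRNPL-deficient cells. The lowest hnRNPL-deficient value was above the highest WT value. Its log2 fold change of 0.58 (SE 0.183, 95% interval 0.16 to 0.99) had an adjusted p of 0.0799 from limma but was just under the 1.5-fold limit of 0.585. *Sirt4* passed both thresholds with libraries scaled to equal totals (0.63, adjusted p = 0.0629 from limma) and in DESeq2 on 5 libraries (0.61, adjusted p = 0.0814), and its adjusted p ranged from 0.107 to 0.211 when 1 library at a time was left out.

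*Sirt3*, the main mitochondrial deacetylase (chr7:140863666-140882309, minus strand), had 168, 181 and 160 normalized counts in WT and 213, 233 and 267 in hnRNPL-deficient cells. The groups did not overlap, and hnRNPL-deficient 3 was the highest of all libraries. The log2 fold change was 0.48 (SE 0.177, 95% interval 0.08 to 0.89), with an unadjusted p of 0.0253 and an adjusted p of 0.122 from limma. The adjusted p of *Sirt3* from limma was 0.0989 with libraries scaled to equal totals and 0.0818 without the mean-variance trend. It was 0.0746 with a replicate block, and these fold changes were all under 1.5-fold. With 1 library at a time left out it ranged from 0.147 to 0.303. *Sirt5*, a mitochondrial desuccinylase (chr13:43365496-43395203, plus strand), had 111, 122 and 108 normalized counts in WT and 97.4, 121 and 82.2 in hnRNPL-deficient cells. It was the least abundant sirtuin, the genotypes overlapped, and the interval of its log2 fold change of -0.20 ran from -0.71 to 0.32 (adjusted p = 0.613 from limma), so that a 1.5-fold decrease was within it.

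Counted over the family, 3 sirtuins had all hnRNPL-deficient libraries above all WT libraries and 1 had them all below. Among all tested genes, 17.7% did not overlap with hnRNPL-deficient cells higher and 16.3% did not overlap with them lower, 34.0% in all.

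**Figure D2:**
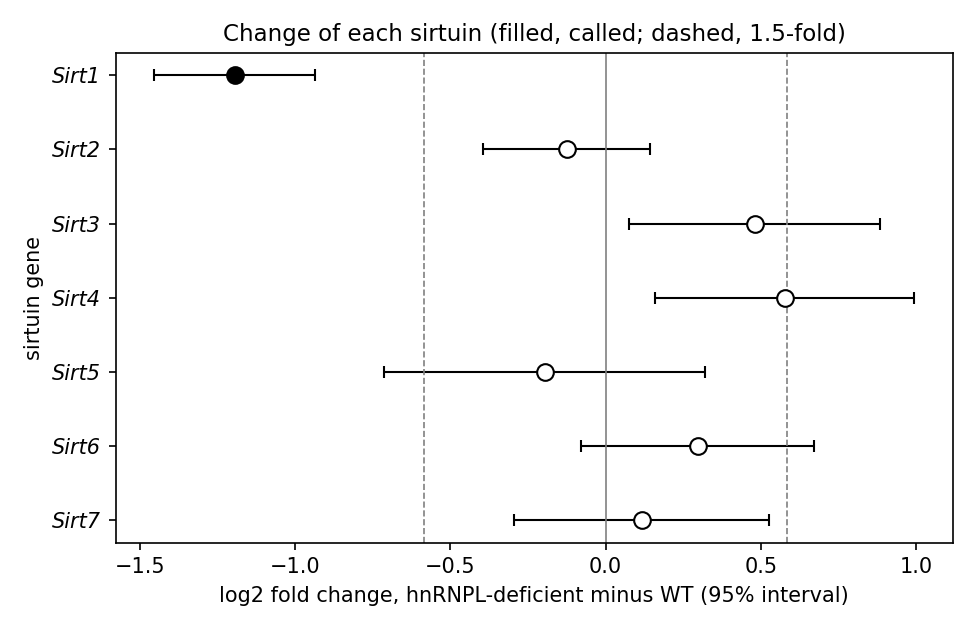
Log2 fold change of each sirtuin, hnRNPL-deficient minus WT, with its 95% interval from limma over 6 libraries. The filled point is called, open points are not, and dashed lines mark 1.5-fold. The interval of *Sirt1* (-1.46 to -0.93) lies wholly below the lower line, the intervals of *Sirt3* and *Sirt4* lie above 0 but cross the upper line, and those of *Sirt2*, *Sirt5*, *Sirt6* and *Sirt7* include 0.

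To compare levels between the genes, normalized counts were divided by the length of all annotated exons of each gene in kilobases (kb). In WT cells *Sirt1* was the most abundant sirtuin at 496 ± 43.5 normalized counts per kb, followed by *Sirt2* at 380 ± 34.9 (SD, n = 3 each). *Sirt7* at 226 ± 38.2 and *Sirt6* at 200 ± 36.8 overlapped between libraries, and *Sirt4* at 73.4 ± 10.8, *Sirt3* at 28.4 ± 1.76 and *Sirt5* at 18.7 ± 1.20 followed without overlap. The nuclear and cytosolic sirtuins thus all lay above the mitochondrial ones on this scale.

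In hnRNPL-deficient cells *Sirt2* was first at 349 ± 31.3 normalized counts per kb, and *Sirt1*, at 217 ± 16.8, came after *Sirt7* and *Sirt6*. *Sirt7* (245 ± 47.4), *Sirt6* (243 ± 13.2) and *Sirt1* could not be ordered, since the ranges of neighbours overlapped. The order of the mitochondrial genes was *Sirt4* (109 ± 8.09), *Sirt3* (39.8 ± 4.61) and *Sirt5* (16.5 ± 3.22), as in WT. The first place in WT depends on the length used. Per kb of the longest transcript, *Sirt2* (904 normalized counts per kb) stood above *Sirt1* (597), and in hnRNPL-deficient cells *Sirt2* was also first on that scale (829, against 261 for *Sirt1*).

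Of the summed level of the family per kb, *Sirt1* made up 40.7%, 32.8% and 31.7% in WT 1 to 3 and 17.4%, 15.7% and 20.5% in hnRNPL-deficient 1 to 3. The share was lower in every hnRNPL-deficient library, with means of 35.1% ± 4.87 and 17.9% ± 2.46 (SD, n = 3 each). *Sirt2* had a share of 26.7% ± 0.995 in WT and 28.6% ± 0.764 in hnRNPL-deficient cells. *Sirt6* went from 14.0% ± 1.96 to 19.9% ± 0.278 and *Sirt4* from 5.14% ± 0.457 to 8.98% ± 0.869. These shares sum to a fixed total, so a lower share of *Sirt1* sets a higher share for the others. The sum itself was 1332 to 1504 normalized counts per kb in WT and 1147 to 1299 in hnRNPL-deficient cells, without overlap.

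**Figure D3:**
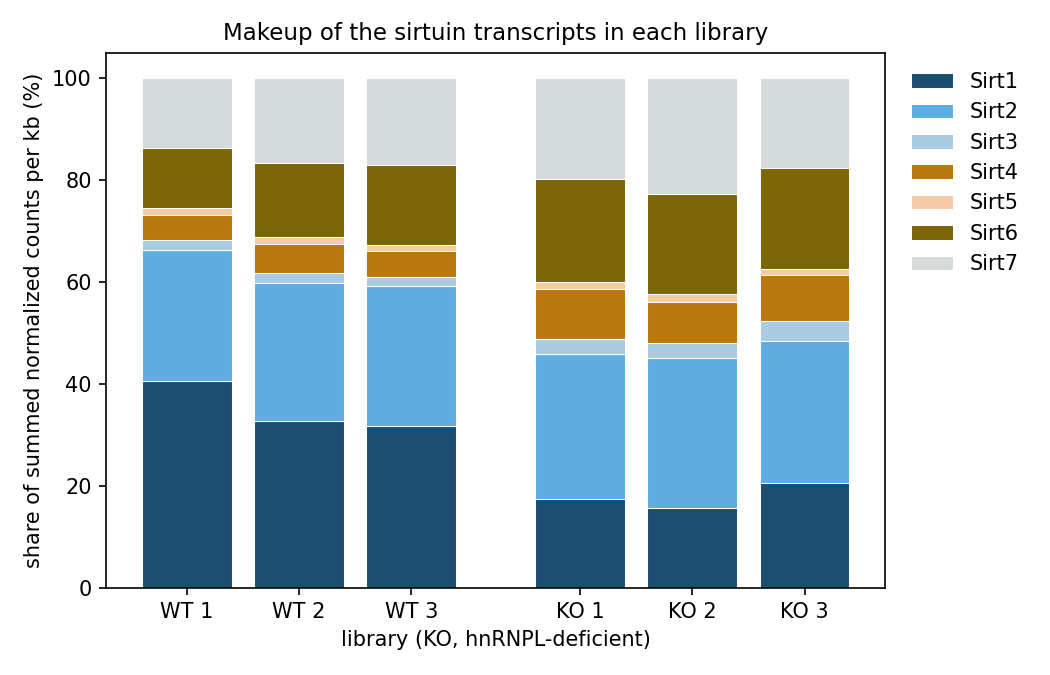
Share of each sirtuin in the summed normalized counts per kb of exon, in percent, for the 3 WT and the 3 hnRNPL-deficient (KO) libraries. The lowest, dark blue segment is *Sirt1*, which spans 31.7% to 40.7% in WT and 15.7% to 20.5% in hnRNPL-deficient libraries.

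Ratios within a library do not depend on how libraries were scaled. The ratio of *Sirt1* to *Sirt2*, in normalized counts, was 1.68, 1.28 and 1.22 in WT and 0.648, 0.565 and 0.780 in hnRNPL-deficient cells, so that *Sirt1* exceeded *Sirt2* in each WT library and in none of the hnRNPL-deficient ones. The ratio to *Sirt7* was 3.09, 2.03 and 1.93 in WT and 0.911, 0.715 and 1.21 in hnRNPL-deficient cells. The ratio to *Sirt4* had means of 15.3 ± 3.13 and 4.44 ± 0.548, and that to *Sirt3* of 15.6 ± 1.36 and 4.88 ± 0.349 (SD, n = 3 each). All 6 ratios were lower in each hnRNPL-deficient library than in any WT library, with changes of the log2 ratio from -1.78 for *Sirt4* to -0.998 for *Sirt5*. Each gave p = 0.1 in a two-sided exact permutation test over libraries, adjusted p = 0.1 over the 6 pairs, the smallest p that 3 against 3 allows, so the threshold of 0.05 could not be reached. All 6 ratios share the same *Sirt1* values.

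WT 1 had the highest *Sirt1* value of all libraries and the lowest WT values of *Sirt2*, *Sirt4*, *Sirt6* and *Sirt7*. Without it the log2 fold change of *Sirt1* was -1.13 (adjusted p = 0.00252 from limma), and that of *Sirt6* was 0.13, the lowest of its alternatives.

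**Figure D4:**
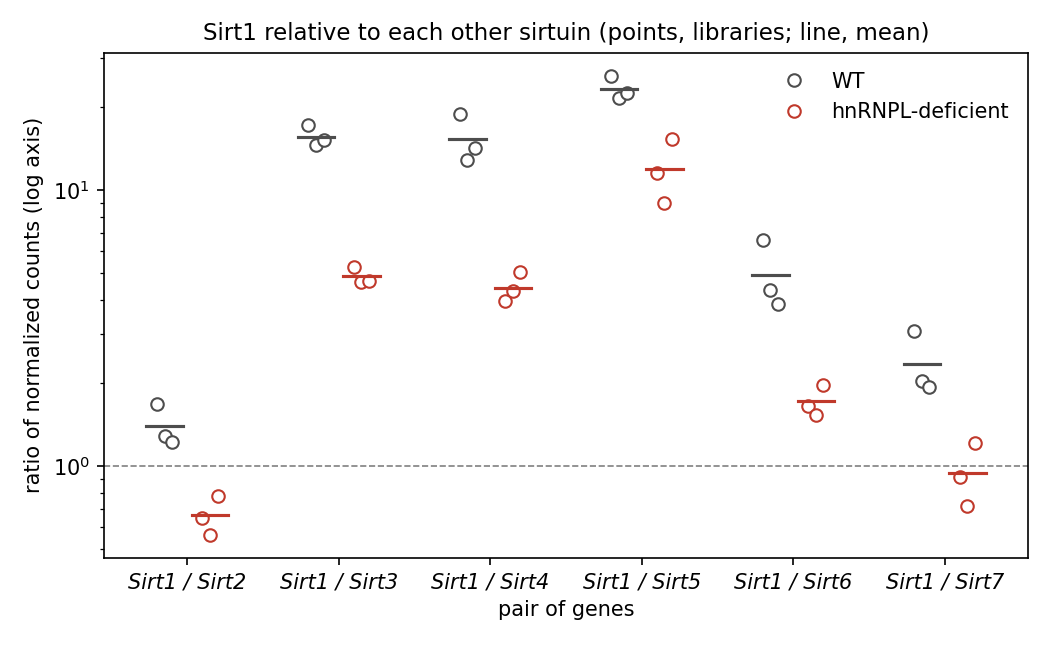
Ratio of *Sirt1* to each other sirtuin in normalized counts, on a log axis, with the dashed line at equal counts. Points are libraries and short lines are means of 3. The grey WT points lie above the red hnRNPL-deficient points for all 6 pairs, and only for *Sirt2* and *Sirt7* do hnRNPL-deficient points fall below the dashed line.

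The genes overlapping each sirtuin and the nearest tested gene on each side were compared. Overlapping genes can share reads where strands are not told apart. The study counted reads by strand. For *Sirt1*, the antisense gene *Gm16145*, which overlaps it, was listed at 0 in all libraries. *Herc4*, a ubiquitin ligase gene 1127 bases beyond its 3′ end, overlapped between the genotypes (log2 fold change 0.17, adjusted p = 0.341 from limma). *Dnajc12*, a gene for a co-chaperone whose start lies 739 bases from that of *Sirt1* on the opposite strand, had 39.5, 43.2 and 35.2 normalized counts in WT and 118, 132 and 151 in hnRNPL-deficient cells. It rose while *Sirt1* fell (log2 fold change 1.74, adjusted p = 0.00344 from limma).

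*Sirt2* lies 19880 bases before *Hnrnpl*, the gene deleted in this model, with *Rinl* between them. *Rinl*, which encodes a regulator of Rab GTPases, rose from 364, 406 and 374 normalized counts to 624, 628 and 513 (log2 fold change 0.62, adjusted p = 0.0302 from limma), and so did *Ech1*, a fatty acid oxidation gene on the other side of *Hnrnpl* (0.66, adjusted p = 0.0301 from limma). *Nfkbib*, which encodes an inhibitor of NF-κB and overlaps *Sirt2* by 778 bases on the opposite strand, had a log2 fold change of -0.49 (adjusted p = 0.0356 from limma) and was not called because of its size. *Sars2*, the nearest tested gene before *Sirt2* that does not overlap it, was not called (0.39, adjusted p = 0.286 from limma). *Rinl* was not called without WT 3 (0.61, adjusted p = 0.112 from limma), hnRNPL-deficient 1 (0.57) or hnRNPL-deficient 2 (0.57), nor *Ech1* without WT 3 (0.62, adjusted p = 0.113 from limma). Of the 12 tested genes within 100 kb of *Hnrnpl*, these 2 were called, beside the 11.4% called among all tested genes.

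**Figure D5:**
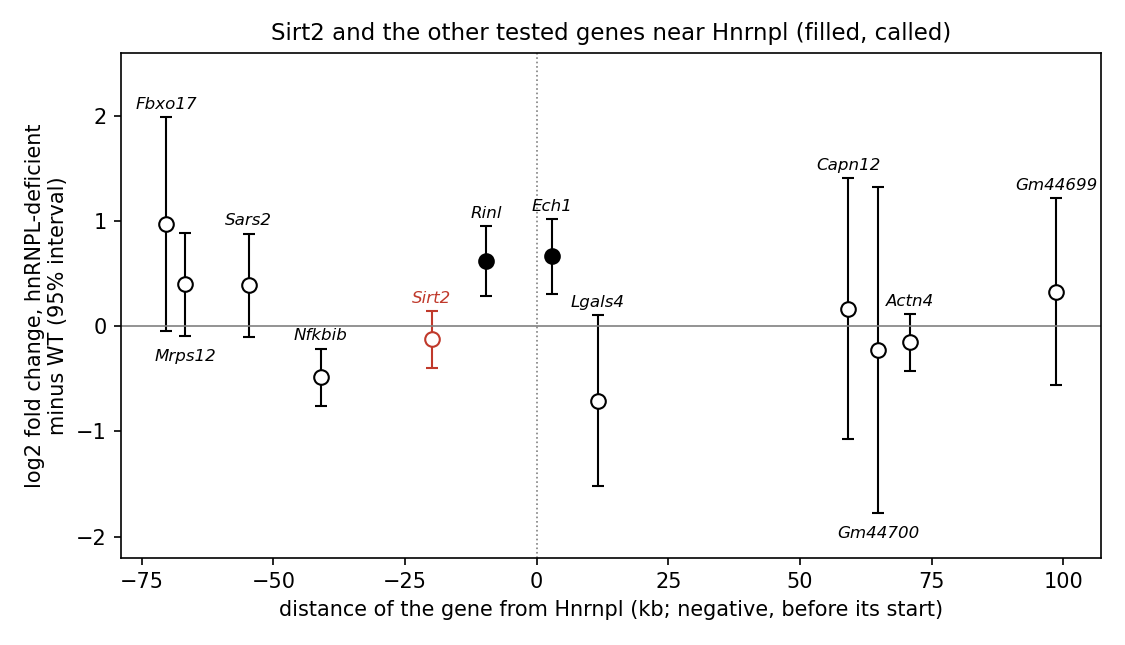
Log2 fold change, hnRNPL-deficient minus WT, with 95% interval from limma, of the 12 tested genes within 100 kb of *Hnrnpl*, against their distance from it in kb. Filled points are called and *Sirt2* is red. *Rinl* (0.62) and *Ech1* (0.66) flank *Hnrnpl*, and *Sirt2* (-0.13) lies beyond *Rinl*.

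Around the other sirtuins, *Ankrd24*, 743 bases from the start of *Sirt6*, rose from 71.0 ± 1.59 normalized counts in WT to 125 ± 19.3 in hnRNPL-deficient cells (log2 fold change 0.80, adjusted p = 0.0535 from limma). It was not called without WT 2, WT 3, hnRNPL-deficient 1 or hnRNPL-deficient 2 (0.72 to 0.80, adjusted p = 0.142 to 0.154 from limma). *BC025920* on its other side was not called (0.30, adjusted p = 0.377 from limma). *Pycr1*, a mitochondrial proline synthesis gene near *Sirt7*, fell (-0.87, adjusted p = 0.0134 from limma), while *Mafg*, which overlaps *Sirt7* by 124 bases on the same strand, and *Pcyt2* did not pass the test, and *Mir6936* was at 0. *Psmd13* and *Ric8a* overlap *Sirt3* on the opposite strand, and neither was called, nor were its neighbours *Bet1l* and *Gm15542*. *Gfod1*, 61324 bases from *Sirt5*, was called higher (0.66, adjusted p = 0.0617 from limma), and *Nol7* on its other side did not pass the test. *Gfod1* was not called when any 1 of 5 libraries, all but hnRNPL-deficient 3, was left out (0.54 to 0.71, adjusted p = 0.127 to 0.17 from limma). The tested genes nearest to *Sirt4*, *Cox6a1* at 129029 bases and *Gm24265* at 4734 bases, overlapped between the genotypes.

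The genes whose pattern over the 6 libraries was most like that of *Sirt1* were found by Euclidean distance of centred log2 values among the 13875 genes that averaged 50 normalized counts or more and had no place in the family. They were *Ifit1* (distance 0.0880), *Gm11131*, *Iars2*, *Bcl2a1d* and *Usp24* (0.281). *Ifit1*, an interferon-induced gene, had 8114, 7408 and 6507 normalized counts in WT and 3007, 3102 and 3514 in hnRNPL-deficient cells. WT 1 was the highest and WT 3 the lowest WT library for both genes, and hnRNPL-deficient 3 was the highest of its group. The lowest of that group was hnRNPL-deficient 1 for *Ifit1* and hnRNPL-deficient 2 for *Sirt1*. *Ifit1* was chosen by these same values, so a like order follows from the choice and is no separate result. The genes nearest to *Sirt2*, *Sirt3*, *Sirt4*, *Sirt5*, *Sirt6* and *Sirt7* were *Agpat1*, *Gm46430*, *3110040N11Rik*, *Strada*, *Rnf166* and *Mvb12a*, at distances of 0.0455 to 0.141.

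Genes related to the sirtuins were then read from 6 lists of 85 genes, of which 76 passed the filter. The lists hold regulators of SIRT1, genes of NAD+ synthesis (with NAD+ kinases and an NAD+ transporter) and of NAD+ consumption, and the classical deacetylases. The others hold genes for nuclear and cytosolic and for mitochondrial sirtuin substrates. Of these, 5 were called higher and 3 lower, beside the 7.28% and 4.08% of all tested genes. At an adjusted p under 0.1, whatever the fold, the numbers higher and lower were 1 and 1 of the SIRT1 regulators, 1 and 1 of NAD+ synthesis, 1 and 0 of NAD+ consumption, 4 and 0 of the classical deacetylases, 2 and 3 of the nuclear and cytosolic substrates, and 0 and 4 of the mitochondrial substrates. Over all tested genes 10.0% were higher and 7.97% lower by this criterion. Among 8 regulators of SIRT1, 1 was called higher and 0 lower, with a median log2 fold change of -0.13 beside -0.03 over all tested genes. *Hic1*, which encodes a transcriptional repressor known to bind the *Sirt1* promoter, had 19.7, 11.2 and 15.3 normalized counts in WT and 75.7, 74.7 and 49.3 in hnRNPL-deficient cells. It rose by 2.05 on the log2 scale (95% interval 1.28 to 2.82, adjusted p = 0.00773 from limma), without overlap, from a level at which few reads were counted. *Elavl1*, which encodes the RNA-binding protein HuR that stabilizes *Sirt1* mRNA (-0.19, adjusted p = 0.31 from limma), and *Dyrk1a*, a kinase that phosphorylates SIRT1 (0.03, adjusted p = 0.846 from limma), did not pass the test.

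Among 14 tested genes of the NAD+ synthesis list, 1 was called in each direction, and the median was 0.03. This list also holds NAD+ kinases and a mitochondrial NAD+ transporter, which do not make NAD+. *Haao*, an enzyme of the kynurenine route to NAD+, rose from 587, 768 and 806 normalized counts in WT to 1032, 1161 and 1158 in hnRNPL-deficient cells (log2 fold change 0.64, adjusted p = 0.029 from limma). *Nmnat3*, a mitochondrial enzyme of the last step of NAD+ salvage, fell from 341, 497 and 474 to 191, 166 and 329, with the genotypes close at their nearest libraries (-0.98, adjusted p = 0.0551 from limma). *Haao* was not called without WT 1 (0.50, adjusted p = 0.0482 from limma), and *Nmnat3* was not without WT 2, WT 3, hnRNPL-deficient 1 or hnRNPL-deficient 2 (-0.91 to -0.78, adjusted p = 0.131 to 0.169 from limma). *Nampt*, the rate-limiting enzyme of NAD+ salvage, is outside the naming rule and is given for that role. It had a log2 fold change of -0.22 (adjusted p = 0.237 from limma).

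Among 11 tested genes of NAD+ consumption, which compete with sirtuins for the cofactor, 1 was called higher and 0 lower, with a median of 0.04. *Cd38*, an NAD+ glycohydrolase on the B cell surface, had 2620, 1371 and 1421 normalized counts in WT and 4065, 2500 and 3350 in hnRNPL-deficient cells. It rose by 0.91 on the log2 scale (adjusted p = 0.0611 from limma), but WT 1 lay above hnRNPL-deficient 2. It was not called without WT 2, WT 3, hnRNPL-deficient 1 or hnRNPL-deficient 3 (0.75 to 0.89, adjusted p = 0.142 to 0.186 from limma). The most abundant members, *Parp14* (-0.22, adjusted p = 0.187 from limma) and *Parp1* (0.13, adjusted p = 0.55 from limma), were not called.

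The 11 classical deacetylases *Hdac1* to *Hdac11*, which use zinc and not NAD+, had 1 member called higher and 0 lower, with a median of 0.10. *Hdac11* rose from 19.7, 29.4 and 30.6 normalized counts in WT to 51.4, 90.9 and 64.4 in hnRNPL-deficient cells (1.33, adjusted p = 0.0356 from limma), and it was not called without hnRNPL-deficient 2 (1.11, adjusted p = 0.117 from limma). *Hdac1*, the most abundant, had a log2 fold change of 0.36 (adjusted p = 0.0869 from limma), under 1.5-fold, and *Hdac2* of -0.14 (adjusted p = 0.572 from limma).

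Among the 17 genes for nuclear and cytosolic sirtuin substrates, 1 was called in each direction, with a median of -0.07. *Foxo3*, a transcription factor deacetylated by SIRT1, had 2001, 2094 and 2007 normalized counts in WT and 4023, 3823 and 3450 in hnRNPL-deficient cells, a rise of 0.89 on the log2 scale (adjusted p = 0.00159 from limma). *E2f1*, a cell cycle factor that SIRT1 binds, fell from 2168, 1771 and 1673 to 1333, 1200 and 750 (-0.81, adjusted p = 0.046 from limma), lowest in hnRNPL-deficient 3. It was not called without that library (-0.55, adjusted p = 0.0612 from limma) or without WT 1 (-0.70, adjusted p = 0.115 from limma).

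Among the 15 tested genes for mitochondrial sirtuin substrates, 0 were called higher and 1 lower, with a median of -0.13. *Idh2*, the NADP-dependent isocitrate dehydrogenase deacetylated by SIRT3, fell from 1790, 1408 and 1555 normalized counts to 1131, 1155 and 837 (-0.61, adjusted p = 0.041 from limma), without overlap. It was not called without WT 1, WT 3 or hnRNPL-deficient 3 (-0.62 to -0.46, adjusted p = 0.0814 to 0.121 from limma). *Got2* had a log2 fold change of -0.33 (adjusted p = 0.097 from limma), under 1.5-fold, and *Sdha* of 0.08 (adjusted p = 0.702 from limma).

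Some marker genes were called as well, beside 7.28% called higher and 4.08% called lower among all tested genes. Of the markers, 1 of 6 B cell genes was called higher and 1 of 5 plasma cell genes lower. Among tested myeloid genes, 1 of 2 was called higher (*Adgre1*, not *Itgam*). For the tested T cell genes (*Lck* and *Trac*) 0 of 2 were called, and 0 of 1 NK and erythroid gene (*Hbb-bs*). *Cr2*, the gene for CD21 whose promoter drives the Cre, rose (log2 fold change 0.85, adjusted p = 0.0444 from limma), as did *Adgre1*, a macrophage marker, from 236 to 315 normalized counts in WT to 1217 to 1369 in hnRNPL-deficient cells (2.24, adjusted p = 1.39e-04 from limma). The myeloid genes *Lyz2*, *Cd14*, *S100a8* and *S100a9* were at or near 0 in all libraries, while the summed myeloid list, which is mostly *Adgre1*, ranged from 260 to 331 normalized counts in WT and from 1239 to 1382 in hnRNPL-deficient cells. *Cd3e*, *Cd3g* and *Cd4* were near 0 as well, and the summed T cell list, mostly *Lck*, ranged from 913 to 1039 and from 662 to 906. The summed B cell markers ranged from 246923 to 321999 normalized counts in WT and from 249461 to 300397 in hnRNPL-deficient cells, and overlapped, and the most abundant, *Pax5* and *Ms4a1*, were not called. *Jchain*, a plasma cell gene, fell (-2.31, adjusted p = 0.0509 from limma) from 26.0 to 117 to 7.07 to 23.4 normalized counts, and the summed plasma cell markers overlapped. Neither *Cr2* nor *Jchain* was called in every fit that left out 1 library, with an adjusted p of up to 0.143 for *Cr2* (without WT 3) and 0.148 for *Jchain* (without WT 2) from limma. The part of these genes in the *Sirt1* difference was not tested.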

How the data were processed

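Poly(A) RNA-seq libraries of sorted, activated spleen B cells were analysed, 3 of each genotype, grouped by the sample labels. The authors trimmed reads with fastp 0.23.1, aligned them with STAR 2.7.9a to mm10, counted them by strand with featureCounts on GENCODE M23 and divided the counts by DESeq2 1.38.2 size factors. What was deposited is the resulting signal, these scaled counts, in 1 column per library. The deposited columns of log2 fold changes, test scores, p-values and adjusted p-values hold the authors' own comparison and were not used.

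Genes averaging 10 normalized counts or more were tested on log2(normalized count + 1) with limma 3.58.1 (mean-variance trend, R 4.3.3), Benjamini-Hochberg adjustment over all 17640 tested genes, and calls at an adjusted p under 0.1 and 1.5-fold, the study's thresholds. In each library 100% of values were whole multiples of 1 read within 0.01 reads. Reads of 5 libraries (not hnRNPL-deficient 2, whose step is near 1 and is not read by the automatic test) entered edgeR 4.0.16 and DESeq2 1.42.0 as alternatives, with 1144 higher and 578 lower, and 1180 higher and 721 lower, genes called. Ratios used exact permutation tests (scipy 1.17.1). The tests were tried on simulated data. Coordinates, lengths and transcript sequences came from GENCODE M21 (GRCm38), with a match for 17615 tested genes. The density of hnRNPL motifs over whole genes needs a genome sequence and was not analysed here.

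The sirtuins, gene lists and alternatives were chosen with earlier results of these data known. Named genes are the sirtuins, *Hnrnpl*, and called members of each list (or the 2 most abundant where fewer than 2 were called). Also named are the nearest tested and the overlapping genes of each sirtuin, genes within 100 kb of *Hnrnpl*, and the genes nearest in pattern. *Xist*, *Nampt* and the T cell and myeloid marker genes given as near 0 are outside this rule and were chosen after their values were seen. Alternatives were other pseudocounts, filters, scalings, variance settings, thresholds, a replicate block, an *Xist* covariate, each library left out, and the count tests. limma on the same 5 libraries was added after seeing the data and repeats the fit without hnRNPL-deficient 2.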

Additional observations from a re-analysis of the deposited data

How the results depend on the processing

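*Sirt1* was called lower in all 19 alternatives, with log2 fold changes from -1.26 to -1.11 and adjusted p from 4.09e-11 to 0.00691, and it was the only sirtuin called lower in each. No sirtuin was called higher, except that *Sirt4* was with libraries scaled to equal totals (1 sirtuin, 0.63) and in DESeq2 on 5 libraries (1 sirtuin, 0.61), as its main value of 0.58 is just under the threshold. *Sirt7* changed sign in edgeR (-0.00238), DESeq2 (-0.0216) and limma (-0.0263) on 5 libraries, which all leave out hnRNPL-deficient 2. The limma fit on 5 libraries is the same fit as limma without hnRNPL-deficient 2, so these 2 of the 19 alternatives are not separate. The values of *Sirt7* with single libraries left out ran from -0.0321 to 0.25, with an adjusted p of at least 0.423 in every alternative. Leaving out each library gave -1.26 to -1.13 for *Sirt1*, -0.20 to -0.06 for *Sirt2*, 0.39 to 0.56 for *Sirt3*, 0.48 to 0.69 for *Sirt4*, -0.34 to -0.06 for *Sirt5* and 0.13 to 0.39 for *Sirt6*. Genes called lower in the 6 lists, 3 in the main test, numbered 1 to 4 with single libraries left out (1 without WT 3 and 1 without hnRNPL-deficient 3), and genes called higher, 5 in the main test, were 3 with a filter at a mean of 50. The calls of *Hdac11*, *Nmnat3*, *Haao*, *Cd38*, *E2f1* and *Idh2* each failed in at least 1 alternative, and *Hic1* fell below a filter at a mean of 50, and the cause was not tested. Per kb of the longest transcript, WT levels were 597 (*Sirt1*), 904 (*Sirt2*), 52.9 (*Sirt3*), 98.1 (*Sirt4*), 46.9 (*Sirt5*), 294 (*Sirt6*) and 355 (*Sirt7*). Scaling to equal totals moved the median log2 fold change of all genes by 0.06.

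Deviations of same-numbered libraries from their group means had correlations of 0.429, 0.32 and 0.0663, so the numbers were not taken as pairs; not every library correlated best with its own number. With the number as a replicate block the calls over all genes went from 1284 higher and 719 lower to 1755 and 1018. In this limma fit *Sirt4* had an adjusted p of 0.047 at the same 0.58 and *Sirt3* of 0.0746 at the same 0.48. No call among the sirtuins changed. With 3 libraries a group, a 1.5-fold change stayed within the intervals of *Sirt3*, *Sirt4*, *Sirt5* and *Sirt6*, none of which was called in the main test.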
